A study of Rattus norvegicus with 20 samples.

Results

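The genes described here are the collagens and the main other proteins of the extracellular matrix, measured in foetal rat testes after the dams had been given 1 of 4 compounds. They were chosen by name on the array: every probe for a collagen chain, a laminin chain, a fibrillin, a fibulin or a nidogen, together with Fn1, Lum, Dcn, Bgn, Sparc, Postn and Eln. The rule found 55 gene names with 84 probes, among 35737 names with 41012 probes on the array. Of these, 53 are matrix genes, and the pattern also takes in Col4a3bp and Nid67, which are not matrix genes. The filter on low signals kept 53 names and lost Col11a1 and Col17a1. No probe on the array is named Col4a1.

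The study asked how tris(2-ethylhexyl) trimellitate (TOTM), a plasticiser, acts on gene expression in the foetal testis beside related compounds. All dams were Han Wistar rats dosed by gavage once a day on gestation days 12 to 19. The 4 control arrays came from dams given corn oil alone, and 4 arrays each came from dams given 500 mg/kg of TOTM, of di(2-ethylhexyl) phthalate (DEHP), of mono(2-ethylhexyl) phthalate (MEHP), or of a compound labelled EHO, whose name the labels do not spell out. DEHP is a diester and MEHP a monoester of phthalic acid with the same alcohol, and TOTM is a triester of trimellitic acid with that alcohol. Each array holds RNA from a pool of testes of at least 3 pups (6 testes) of a litter, so the spread between arrays is a spread between pools and not between single animals.

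Fibrillar collagens such as type I, III and V form the tensile fibres of connective tissue. Basement membranes are sheets of type IV collagen and laminin, joined by nidogens, and in the testis they lie between the seminiferous cords and the surrounding cells. Fibrillins form microfibrils that carry elastin and store growth factors of the TGF-beta family. In the foetal testis, interstitial fibroblast-like cells and peritubular myoid cells make most of the fibrous matrix, while Sertoli and peritubular cells together lay down the basement membrane of the cords.

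The promoters of Col1a2, Fbn1 and Nid1 are shown because these 3 genes were higher after EHO than after TOTM, on the probe tested for each, in the analysis as reported and in all 21 other analyses that gave them a value. The other probes of Fbn1 and Nid1 were not called. The sequences are from RefSeq (assembly GRCr8) and run from 250 bases before the start annotated for the gene to 30 bases after it. They are printed 5′ to 3′ on the gene's strand. In Col1a2 and Fbn1 the letters after that start open with ATG, the codon that begins a protein. Their windows are thus placed on the start of translation, and their transcription starts were not located. All windows are called promoters here, and how many others open in this way was not checked. Capitals mark the motif CCAAT (which reads ATTGG when on the opposite strand), the motif GGGCGG (which then reads CCGCCC) and the motif TATAAA (which then reads TTTATA), searched on both strands. No marked motif overlaps another in the printed promoters.
Col1a2, chr4:33518307-33518586, plus strand: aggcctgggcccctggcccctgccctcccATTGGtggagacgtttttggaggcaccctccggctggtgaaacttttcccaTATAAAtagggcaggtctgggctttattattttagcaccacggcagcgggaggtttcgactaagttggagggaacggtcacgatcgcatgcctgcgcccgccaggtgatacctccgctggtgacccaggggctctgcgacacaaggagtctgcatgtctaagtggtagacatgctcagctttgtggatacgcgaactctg
Fbn1, chr3:133203361-133203640, minus strand: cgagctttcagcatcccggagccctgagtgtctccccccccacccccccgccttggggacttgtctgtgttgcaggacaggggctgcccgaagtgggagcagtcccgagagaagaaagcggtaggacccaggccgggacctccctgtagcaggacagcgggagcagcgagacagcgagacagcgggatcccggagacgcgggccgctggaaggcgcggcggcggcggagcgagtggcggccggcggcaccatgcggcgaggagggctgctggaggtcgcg
Nid1, chr17:93069036-93069315, plus strand: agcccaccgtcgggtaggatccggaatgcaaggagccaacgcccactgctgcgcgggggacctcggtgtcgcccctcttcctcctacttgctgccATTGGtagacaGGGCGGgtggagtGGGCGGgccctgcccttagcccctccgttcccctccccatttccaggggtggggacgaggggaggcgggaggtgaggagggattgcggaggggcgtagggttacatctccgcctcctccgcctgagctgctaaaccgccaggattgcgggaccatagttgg

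The Col1a2 window, from the gene of the second type I collagen chain, holds a CCAAT motif on the opposite strand and a TATAAA motif. They lie 221 and 170 bases before the ATG, and their distance from the transcription start was not worked out. The Nid1 promoter, of the gene for nidogen-1, which joins laminin to type IV collagen, holds 1 CCAAT motif on the opposite strand and 2 GGGCGG motifs. None of the 3 motifs stands in the Fbn1 window, of the gene for fibrillin-1, which like that of Col1a2 is placed on the ATG. Promoters of 36 of the 51 measured matrix genes could be matched. Their median GC content was 61.2%, against 51.4% over all 33469 promoters of the same length. GGGCGG was found in 55.6% of the matched matrix promoters and in 32.2% of all promoters. CCAAT was found in 27.8% against 36.2%, and TATAAA in 8.33% against 13.7%. These are descriptions of letters in a window, without a test.

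Markers of Sertoli cells, the cells that enclose the germ cells, were well above background on every control array for all 7 on the array, with a summed level of 6.46 to 6.76. Levels are log2 processed signals relative to the 75th percentile of each array, so that 0 is the 75th percentile and a difference of 1 is a doubling of signal. The EHO arrays 1 and 2 were dimmer than the rest: 46.12% and 50.41% of their spots were well above background, against 62.47% to 79.82% on the other 18 arrays. Of the 84 member probes, 63 and 72 were well above background on those 2 arrays, against 77 to 81 on the others. Each group was hybridised on a slide of its own, so slide and group cannot be told apart. On the control arrays 458 to 469 spots were marked as non-uniform, against 0 to 9 on the treated arrays. All 4 control spots were among them for the probes that stand for Col1a1, Col1a2, Col3a1 and Bgn. On those probes the 4 genes have no control value unless marked spots are kept. This leaves 49 members tested against control and 53 tested between compounds. MEHP arrays 1 and 2 differed by less than the noise of repeated spots (ratio 0.777) and were counted as 1 sample. Control array 2 and MEHP array 3 were nearer to each other (ratio 1.285) than arrays of 1 group usually were (median 2.28 over 30 pairs), and so were DEHP array 3 and MEHP array 4 (ratio 1.364).

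After EHO, 10 of the 49 tested members were higher than in controls and 0 lower, and none was called after DEHP, MEHP or TOTM. Genes count as called where limma's adjusted p, corrected over every gene tested, was below 0.05. The members called higher after EHO were 20.4% of those tested, while of all genes tested 24.8% were called in either direction, 6.74% of them higher and 18.1% lower. The share called in either direction is thus close to that of all genes, and the direction is not. The median difference of the members was 0.24 on the log2 scale, with 32 positive and 17 negative values, against -0.17 over all 23897 genes. An unadjusted p under 0.05 was found for 25 members and for 45.4% of all genes. The median over all genes depends on the scaling: it was -0.02 after normexp background correction with quantile normalization, -0.04 after quantile normalization alone, 0.37 with each array's median as the reference and -0.32 with the percentile taken over probes detected on all arrays. Called higher and lower genes over the whole array went with it, from 1610 higher and 4326 lower as reported to 1824 and 2320, 1985 and 2430, 5770 and 2544, and 799 and 5921 in the same order. Of the members, 9 higher and 2 lower were called with normexp, 8 higher with quantile normalization, 26 higher and 1 lower with the array median and 6 higher and 1 lower with the percentile over detected probes.

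**Figure D1:**
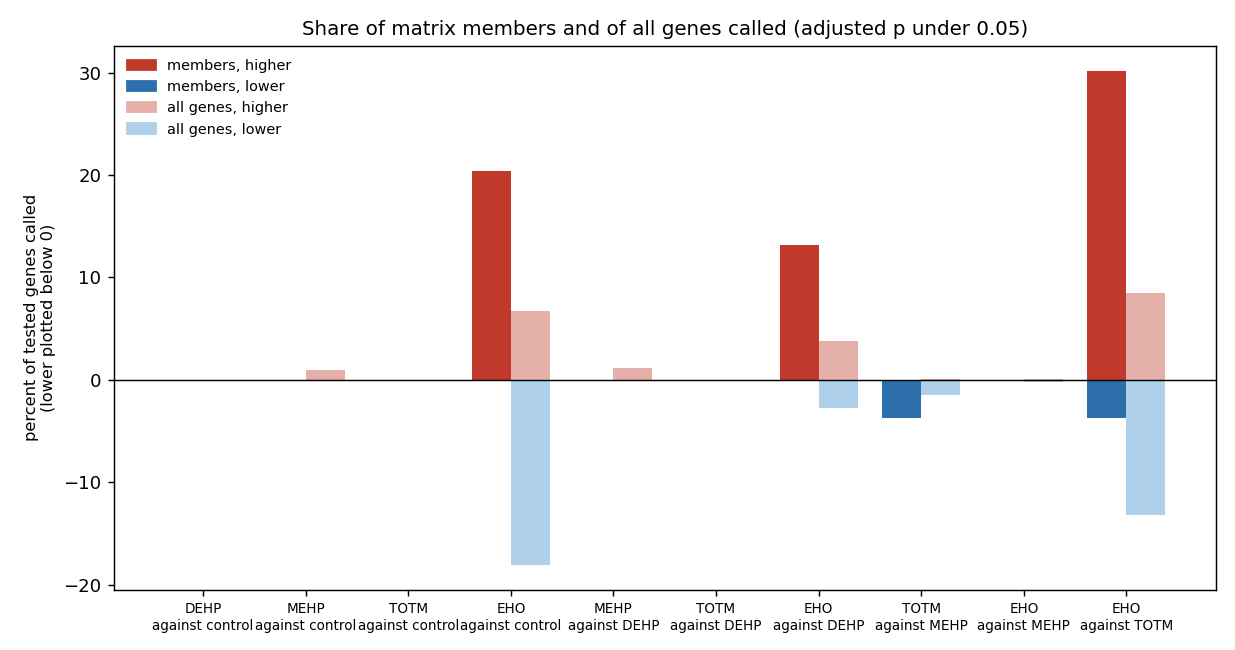
Percent of matrix members (tested names) and percent of all genes called by limma at an adjusted p under 0.05, for each of the 10 comparisons, with genes called higher above 0 and genes called lower below it. Members called higher reach 20.4% for EHO against control and 30.2% for EHO against TOTM, above the 6.74% and 8.51% of all genes.

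The EHO calls rest on few arrays. The count of 10 fell to 0 without Control array 1, to 4 without Control array 4, to 1 without EHO array 1 and to 4 without EHO array 2, and it was 22 without EHO array 3 and 17 without EHO array 4. Without both dim EHO arrays it was 0, and it was also 0 when only the control and EHO groups were fitted. Without the dim arrays the median of the members was 0.23 and 41 of 49 were positive, against 32 of 49 with all arrays. The median and the positive share of all genes were not worked out for that fit, so these values have no background beside them. The difference of Nid1 was then 1.10 and that of Fbn1 0.86, while Sparc went from 0.52 to 0.29 and Lum from 1.10 to 0.65.

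**Figure D2:**
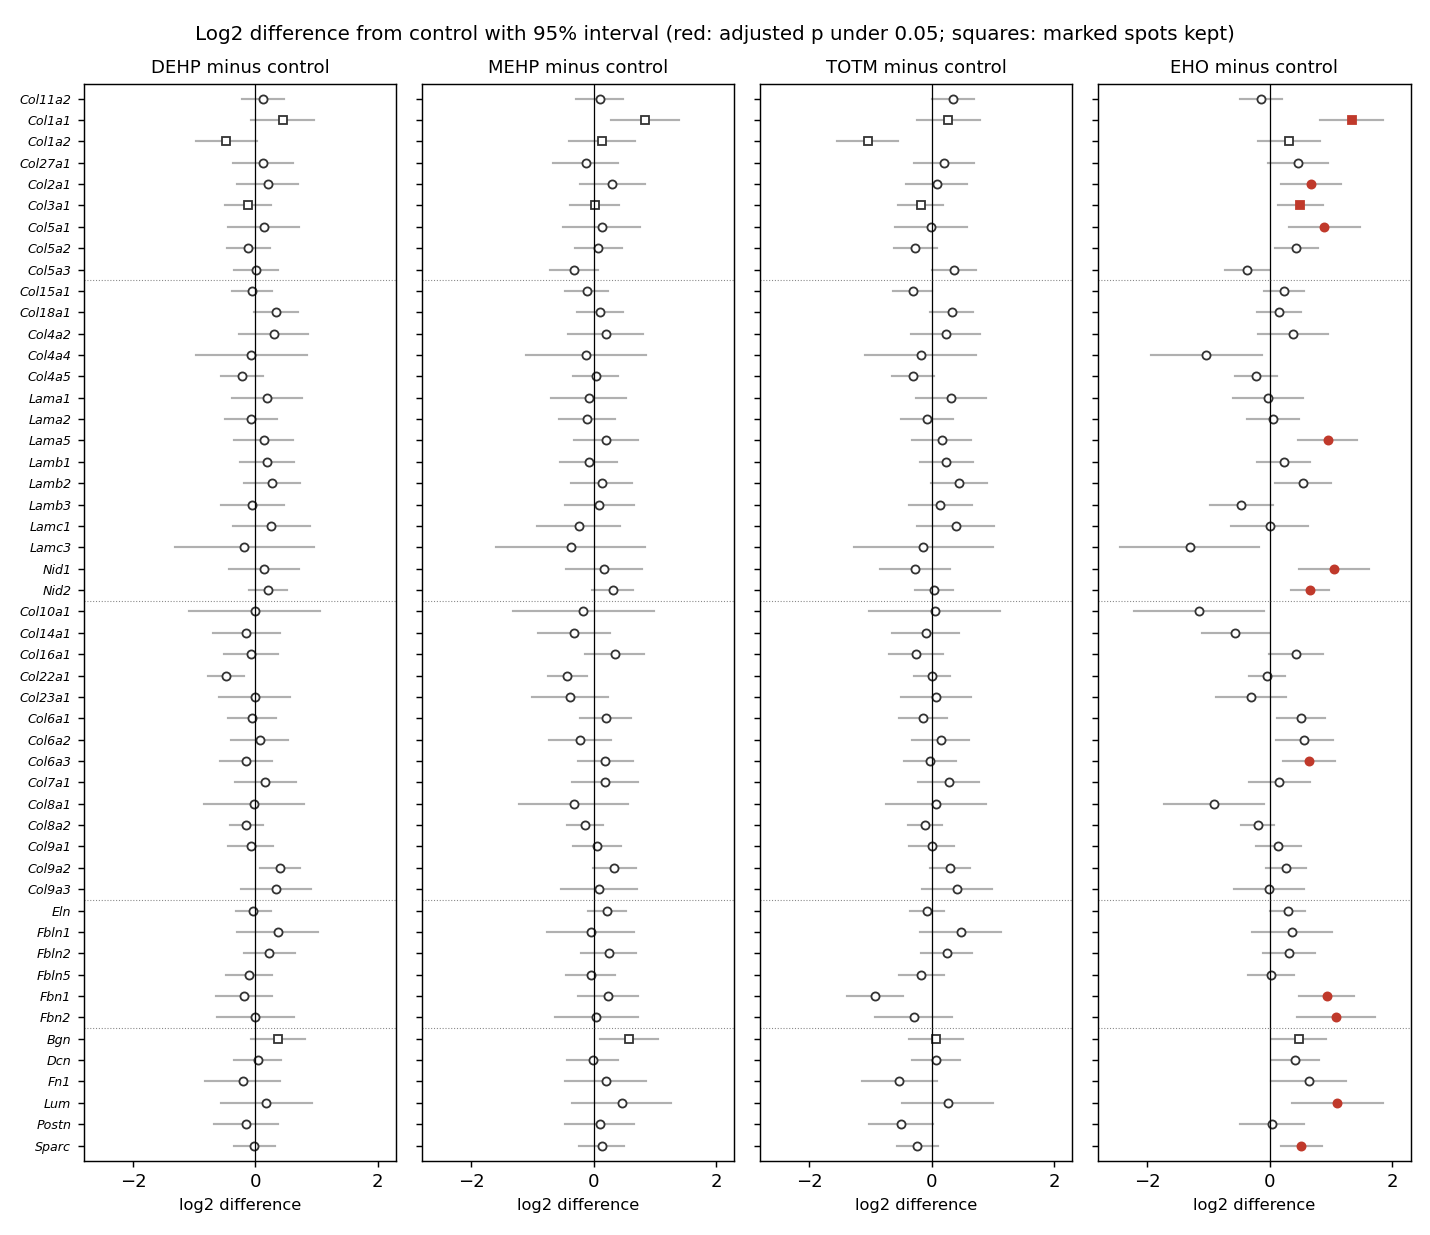
Log2 difference from control with its 95% interval for 50 matrix genes after each of the 4 compounds, where red points are called by limma at an adjusted p under 0.05 and squares are genes whose marked control spots were kept. The red points are all in the EHO panel and all lie above 0.

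Among the fibrillar collagens, 2 of the 6 tested members were higher after EHO. Col5a1, a chain of type V collagen that sets the diameter of collagen fibres (probe at chr3:6970910-6970969, build rn4 here and for all probes), had levels of 2.77, 2.57, 3.75 and 3.48 in the controls and 4.09, 4.09, 3.91 and 4.04 after EHO. Every EHO array was above every control array, and the controls were spread far wider than the EHO arrays. The difference was 0.89 ± 0.28 (SE, n = 4 and 4 here and in comparisons without MEHP, which has 3 samples, unless a marked spot was set aside), a 1.86-fold rise with an adjusted p of 0.0368. Levels after DEHP (2.930, 2.998, 3.57 and 3.60) and TOTM (3.16, 2.89, 3.21 and 3.26) lay within the control range. After MEHP they were 3.75, 3.79, 2.502 and 3.55, so that MEHP array 3 was low while the other MEHP arrays were at or near the top of the control range.

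Col2a1, the fibrillar collagen of cartilage, had levels of 0.33, 0.63, 1.08 and 0.80 in the controls and 1.47, 1.30, 1.63 and 1.14 after EHO. The groups did not overlap, and the difference of 0.67 ± 0.23 (SE) had an adjusted p of 0.0470. A second Col2a1 probe was called in the opposite direction, as given with the other probe comparisons. Col5a2, the second chain of type V collagen, differed by 0.44 (adjusted p = 0.0605) and Col27a1 by 0.46 (adjusted p = 0.129). Col5a3 and Col11a2 had differences of -0.37 and -0.14, neither called.

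Type I collagen also has probes without marked control spots, given with the other probe comparisons. On the probe tested for each gene, types I and III can be set against control only with the marked control spots kept. On that basis 12 of 53 members were called higher after EHO, and the 2 added were Col1a1 and Col3a1, with 7.32% of all genes higher. Col1a1, the first chain of type I collagen, the main collagen of connective tissue, had levels of 5.78, 6.69, 6.66 and 6.60 in the controls and 8.29, 7.79, 7.15 and 7.86 after EHO. All 4 EHO arrays were above all 4 controls, and the difference was 1.34 ± 0.24 (SE) with an adjusted p of 0.00398. Col3a1, the collagen of reticular fibres, had control levels of 6.30, 7.10, 7.04 and 6.91 and EHO levels of 7.64, 7.31, 7.03 and 7.36. Here EHO array 3 lay within the control range, and the difference was 0.50 ± 0.18 (SE) with an adjusted p of 0.0477. Col1a2 differed by 0.31 (adjusted p = 0.314) on the probe tested. Bgn, encoding biglycan, a proteoglycan that binds collagen, had control levels of 6.64, 7.57, 6.88 and 6.81 and EHO levels of 7.89, 7.37, 7.04 and 7.52. The groups overlapped (difference 0.48, adjusted p = 0.0861). Bgn levels were 7.60, 7.19, 7.40 and 7.20 after DEHP, 7.41, 7.51, 7.87 and 7.35 after MEHP and 6.79, 6.96, 7.16 and 7.27 after TOTM.

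**Figure D3:**
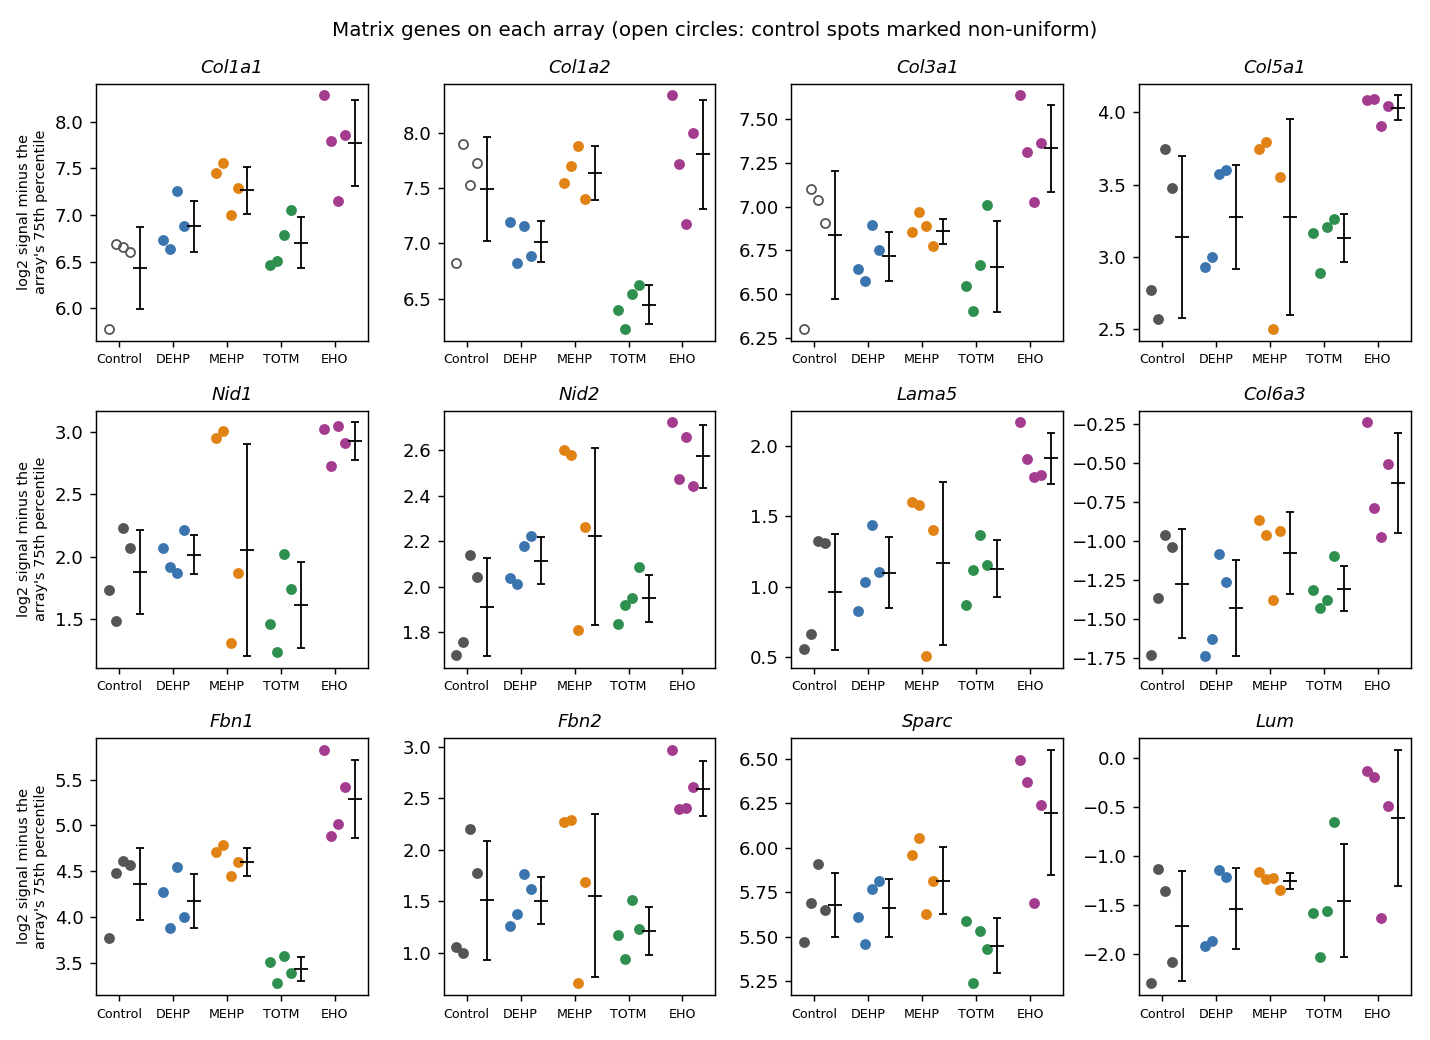
Levels of 12 matrix genes on each of the 20 arrays by group, on a log2 scale relative to the array's 75th percentile, with bars for mean ± SD and open circles for control spots marked as non-uniform. All EHO arrays lie above all control arrays for Col1a1, Col5a1, Nid1, Nid2, Lama5, Fbn1 and Fbn2, and MEHP array 3 lies low for several of them.

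Of the 16 basement membrane members, 3 were higher after EHO and 0 lower. Nid1 had levels of 1.74, 1.48, 2.23 and 2.07 in the controls and 3.03, 2.72, 3.05 and 2.91 after EHO. The groups were clearly apart, and the difference was 1.05 ± 0.27 (SE), a 2.07-fold rise with an adjusted p of 0.0235. Levels of Nid1 after MEHP were 2.95 and 3.01 on the pair counted as 1 sample, and 1.31 and 1.87 on arrays 3 and 4.

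Nid2, the second nidogen, had levels of 1.70, 1.76, 2.14 and 2.04 in the controls and 2.72, 2.47, 2.66 and 2.44 after EHO. It was higher on every EHO array, by 0.66 ± 0.15 (SE) and with an adjusted p of 0.0136, the smallest of any member in this comparison. Lama5, the alpha chain of the laminins of mature basement membranes, had control levels of 0.56, 0.67, 1.32 and 1.31 and EHO levels of 2.17, 1.91, 1.78 and 1.79. Again no EHO array reached down to the controls, and the difference was 0.95 ± 0.23 (SE) with an adjusted p of 0.0190.

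The chains that make up the common laminin and type IV networks were not called. Lamb1 differed by 0.23, Lamc1 by 0.00, Lama1 by -0.03 and Col4a2 by 0.38. The Lamc1 value is that of the tested probe, and its other probe gave 0.46. Col4a4, a type IV chain of specialised basement membranes, differed by -1.04 (adjusted p = 0.0739), and its EHO arrays were spread widely, with a mean of -1.77 ± 1.33 (SD, n = 4). Lamb2 had a difference of 0.54 with an adjusted p of 0.0655. Lamc3, a gamma chain of laminins of other basement membranes, had one of the lowest values at -1.31 (adjusted p = 0.0739). Its EHO levels were -4.40, -2.25, -1.18 and -1.23, against -0.64, -1.50 and -0.75 on Control arrays 1, 2 and 4, as the spot of Control array 3 was marked and set aside. The low values were on the 2 dim arrays, and without them the difference was -0.25.

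Among the 14 other collagens measured, only Col6a3 was called after EHO. Type VI collagen forms beaded filaments next to cells, from chains encoded by Col6a1, Col6a2 and Col6a3. Col6a3 had levels of -1.73, -1.37, -0.96 and -1.04 in the controls and -0.24, -0.79, -0.97 and -0.51 after EHO. EHO array 3 overlapped the controls, and the difference was 0.65 ± 0.20 (SE) with an adjusted p of 0.0369. The other chains differed by 0.51 (Col6a1, adjusted p = 0.0521) and 0.57 (Col6a2, adjusted p = 0.0610), just beyond the threshold. Col10a1, a collagen of hypertrophic cartilage, was the lowest of this group at -1.15 (adjusted p = 0.0878). Its value was 0.07 without EHO arrays 1 and 2.

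Both fibrillins were higher after EHO, and the other 4 elastic fibre genes were not called. Fbn1 (probe at chr3:112608789-112608848) had levels of 3.77, 4.48, 4.61 and 4.57 in the controls and 5.83, 4.88, 5.01 and 5.42 after EHO. All EHO arrays were above the controls, with a difference of 0.93 ± 0.21 (SE), a 1.90-fold rise and an adjusted p of 0.0163. Fbn2, a fibrillin made mainly during development, had control levels of 1.06, 0.9975, 2.20 and 1.78 and EHO levels of 2.97, 2.39, 2.40 and 2.61. The groups did not overlap, and Fbn2 differed by 1.08 ± 0.30 (SE), with an adjusted p of 0.0284. Eln, which encodes elastin itself, differed by 0.29, Fbln1 by 0.36, Fbln2 by 0.32 and Fbln5 by 0.02.

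Of fibronectin, the small leucine-rich proteoglycans and the matricellular proteins, Sparc and Lum were higher after EHO. Sparc, a collagen-binding protein of tissues that are being remodelled, had levels of 5.47, 5.69, 5.91 and 5.65 in the controls and 6.49, 6.37, 5.69 and 6.24 after EHO. EHO array 3 lay within the control range, and the difference was 0.52 ± 0.16 (SE) with an adjusted p of 0.0370. Lum, which encodes lumican, a regulator of fibril spacing, had control levels of -2.30, -1.13, -1.36 and -2.09 and EHO levels of -0.14, -0.19, -1.64 and -0.50. EHO array 3 overlapped the controls here too, and the difference of 1.10 ± 0.35 (SE) had an adjusted p of 0.0389. Fn1, encoding fibronectin, differed by 0.64 (adjusted p = 0.0962), Dcn, encoding decorin, by 0.42 (adjusted p = 0.0876) and Postn by 0.03 (adjusted p = 0.927).

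The main structural chains that were not called are given on every array, since each is a core part of its network. Fn1 had levels of 0.51, 1.41, 1.44 and 1.66 in the controls, 0.95, 0.99, 1.17 and 1.05 after DEHP and 1.69, 1.75, 1.38 and 1.25 after MEHP. After TOTM they were 0.65, 0.31, 0.86 and 1.10, and after EHO 2.86, 1.64, 1.31 and 1.76. EHO array 1 stood above all other arrays, and the other groups overlapped the controls. Dcn, which binds collagen fibrils and growth factors, had 3.32, 3.65, 3.79 and 3.49 in the controls, 3.66, 3.27, 3.71 and 3.74 after DEHP and 3.32, 3.35, 3.58 and 3.73 after MEHP. It had 3.96, 3.15, 3.82 and 3.61 after TOTM and 4.31, 4.10, 3.67 and 3.85 after EHO. EHO array 3 was again the one within the control range.

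Postn, encoding periostin, had levels of 0.60, 1.29, 0.36 and 0.47 in the controls, 0.67, 0.66, 0.42 and 0.37 after DEHP and 0.88, 0.85, 1.22 and 0.25 after MEHP. After TOTM its levels were 0.13, 0.17, -0.20 and 0.64, and after EHO 1.02, 0.77, 0.18 and 0.87. All groups overlapped. Eln had -1.60, -1.68, -1.43 and -1.50 in the controls, -1.56, -1.83, -1.39 and -1.57 after DEHP and -1.15, -1.23, -1.53 and -1.26 after MEHP. It had -1.55, -1.59, -1.52 and -1.86 after TOTM and -1.39, -1.17, -1.51 and -0.98 after EHO. EHO array 3 and MEHP array 3 lay within the control range while the other EHO and MEHP arrays lay above it.

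Lamb1, the beta chain of the common laminins, had levels of 2.55, 2.29, 3.25 and 2.87 in the controls, 2.64, 2.75, 3.04 and 3.30 after DEHP and 2.90, 2.95, 2.18 and 2.88 after MEHP. After TOTM it had 2.90, 2.78, 3.03 and 3.21, and after EHO 2.95, 3.06, 3.0002 and 2.86. The EHO arrays lay inside the control range, and MEHP array 3 was the lowest of all. Lama1, the alpha chain of the first laminin of the embryo, had -0.48, -1.04, 0.15 and -0.28 in the controls, -0.52, -0.48, 0.12 and -0.02 after DEHP and -0.06, -0.20, -1.21 and -0.13 after MEHP. It had -0.06, -0.29, 0.06 and -0.09 after TOTM and -0.91, -0.49, -0.07 and -0.28 after EHO. Here too MEHP array 3 was the lowest array, followed by Control array 2.

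Lamc1, the gamma chain of the common laminins, had levels of -1.57, -2.85, -1.47 and -1.25 in the controls, -1.90, -1.74, -1.26 and -1.23 after DEHP and -1.77, -1.68, -2.76 and -1.59 after MEHP. After TOTM they were -1.34, -1.38, -1.38 and -1.46, and after EHO -1.77, -1.89, -1.67 and -1.83. Control array 2 and MEHP array 3 were again lowest. Col4a2, the second chain of type IV collagen, had 0.64, 0.30, 1.09 and 0.82 in the controls, 0.63, 0.67, 1.30 and 1.44 after DEHP and 1.24, 1.28, 0.14 and 1.33 after MEHP. It had 1.27, 0.48, 0.94 and 1.10 after TOTM and 0.80, 1.28, 1.19 and 1.12 after EHO. Every group overlapped the controls, and the same pair of arrays had the lowest values.

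In all, 7 of the 49 tested members had every EHO array above every control array (14.3%), against 6.64% of all genes, and 0 had every array below, against 6.89% of all genes. These were Col2a1, Col5a1, Fbn1, Fbn2, Lama5, Nid1 and Nid2. As the samples are whole testes, a change in the number of cells of a type and a change in RNA per cell cannot be told apart.

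After DEHP, 0 of 49 members were called, where 0.00418% of all genes were. The limma test gave 2 members and 2.42% of all genes an unadjusted p under 0.05, and no other analysis called any, except 1 with array weights. The median difference was 0.00 and the smallest adjusted p 0.949. That value belonged to Col22a1, a collagen of tissue junctions, which was lower by 0.48 (95% interval -0.77 to -0.18) and on every DEHP array. The next lowest members were Col4a5 (-0.21) and Fn1 (-0.21), and the highest were Col9a2 (0.41), Fbln1 (0.37) and Col18a1 (0.33). Nid1 levels were 2.07, 1.92, 1.87 and 2.21, Nid2 levels 2.04, 2.01, 2.18 and 2.23, and Fbn1 levels 4.27, 3.88, 4.54 and 4.002. All overlapped the controls. Intervals for the genes that were higher after EHO included 0 and reached from -0.44 to 0.71 for Nid1, -0.64 to 0.27 for Fbn1 and -0.45 to 0.72 for Col5a1.

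After MEHP, 0 of 49 members were called against 0.975% of all genes, with 1 member and 5.29% of all genes at an unadjusted p under 0.05. Array weights gave 3 calls, all lower. The 4 MEHP arrays did not behave alike in these genes: Nid1, Col5a1, Fbn2 and Lama5 were high on arrays 1 and 2 and low on array 3. Fbn2, for example, had levels of 2.27, 2.29, 0.71 and 1.68, and Nid2 had 2.60, 2.58, 1.81 and 2.26. The highest members were Lum (0.46), Col16a1 (0.34) and Col9a2 (0.34), and the lowest Col22a1 (-0.43), Col23a1 (-0.38) and Lamc3 (-0.37). Sparc (5.96, 6.05, 5.63 and 5.82) and Lum (-1.16, -1.24, -1.23 and -1.35) both overlapped the controls. When arrays 3 and 4 were left out, which leaves 1 MEHP sample without a spread of its own, the median of the members rose from 0.08 to 0.28. The difference of Nid1 rose from 0.17 to 1.10. The median of all genes was not worked out for that fit. With marked spots kept, Col1a1 levels after MEHP were 7.45, 7.56, 7.004 and 7.29, all above the controls, with a difference of 0.83 and an adjusted p of 0.239. The other Col1a1 probes, whose control spots were not marked, differed by 0.16 and 0.16.

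The same genes also varied among the controls. Control arrays 1 and 2 were lower than arrays 3 and 4 for Col5a1, Fbn2, Lama5 and Nid1. Without Control array 2 and MEHP array 3, the pair of arrays that lay close together, the median of the members after MEHP was 0.15 and the count of EHO calls stayed at 10. The median of all genes was not worked out there either.

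After TOTM, 0 of 49 members were called against 0.00837% of all genes, with 2 members and 8.23% of all genes at an unadjusted p under 0.05. Normexp, a filter requiring detection on all arrays, and array weights each gave 1 call. Fbn1 had the lowest value of any member, with levels of 3.50, 3.28, 3.57 and 3.39 against 3.77, 4.48, 4.61 and 4.57 in the controls. Every TOTM array was below every control array. The difference was -0.92 ± 0.21 (SE, 95% interval -1.38 to -0.47) with an adjusted p of 0.191 over all genes. Fn1 followed at -0.52 and Postn at -0.50, while Fbln1 (0.47), Lamb2 (0.44) and Col4a3bp (0.42) were the highest, none of them called. Nid2 (1.84, 1.92, 1.95 and 2.09), Sparc (5.59, 5.24, 5.53 and 5.43) and Lum (-1.58, -2.04, -1.56 and -0.66) overlapped the controls. With marked spots kept, Col1a2 levels after TOTM were 6.40, 6.23, 6.54 and 6.62 against 6.82, 7.90, 7.53 and 7.73 in the controls. All TOTM arrays were lower, by -1.05 ± 0.24 (SE), with an adjusted p of 0.0773. Col1a1 (6.46, 6.51, 6.79 and 7.05) and Col3a1 (6.55, 6.40, 6.66 and 7.01) overlapped the controls.

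Several genes have more than 1 probe, and the probes did not always give the same difference. All kept probes were fitted with marked spots kept, where 25% of all probes were called for EHO against control and 7.29% were higher. Among 32 pairs of probes for the same gene in 21 genes, 13 differed by over 0.5 for EHO, 5 for TOTM, 5 for MEHP and 2 for DEHP. Pairs with opposite signs numbered 11, 11, 12 and 11 in the same order.

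The 3 Col1a1 probes, which lie within chr10:83637903-83638236, agreed for EHO, with differences of 1.34, 1.16 and 1.10 and adjusted p of 0.00384, 0.0262 and 0.0270. The control spots of the last 2 were not marked, so that the rise of Col1a1 does not rest on marked spots alone. Both Fbn2 probes were higher (1.08 and 0.89), and 2 of 3 Lama5 probes were (0.95 and 0.61), while the third, at -0.40, was not called. The second probes of Fn1 and Col16a1 were higher at 0.86 (adjusted p = 0.0333) and 0.72 (adjusted p = 0.0297), where the first were not called.

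Col1a2 gave 2 pictures. Probe A_43_P12783 (chr4:29428206-29428265) had differences of 0.31 for EHO and -1.05 for TOTM. The other probe, A_44_P458851 (chr4:29425301-29425360), had 1.15 for EHO (adjusted p = 0.0213) and -0.10 for TOTM. The first rests on marked control spots and the second does not.

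The low Fbn1 value after TOTM also stands on 1 probe. A_44_P996061 gave -0.92, and A_44_P179745 (chr3:112608662-112608721), which starts 127 bases away, gave 0.02. The latter had levels of -0.02, 0.24, 0.44 and 0.82 after TOTM and -0.41, 0.60, 0.59 and 0.63 in the controls, which overlap. For EHO the pair gave 0.93 and 0.30. Lamc1 was split in a similar way, with -0.75 (adjusted p = 0.0679) and 0.40 for TOTM.

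Nid1 was higher after EHO on A_44_P245616 (1.05, adjusted p = 0.0214) and near 0 on the other two probes (0.08 and -0.03). Col2a1 had 0.67 (adjusted p = 0.0465) on A_43_P15252 and -0.89 (adjusted p = 0.0497) on A_44_P442938, with EHO levels of -3.49, -2.67, -1.51 and -1.61 on the latter. The lowest of those were on the dim arrays 1 and 2. Which transcripts each probe reads was not tested.

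**Figure D4:**
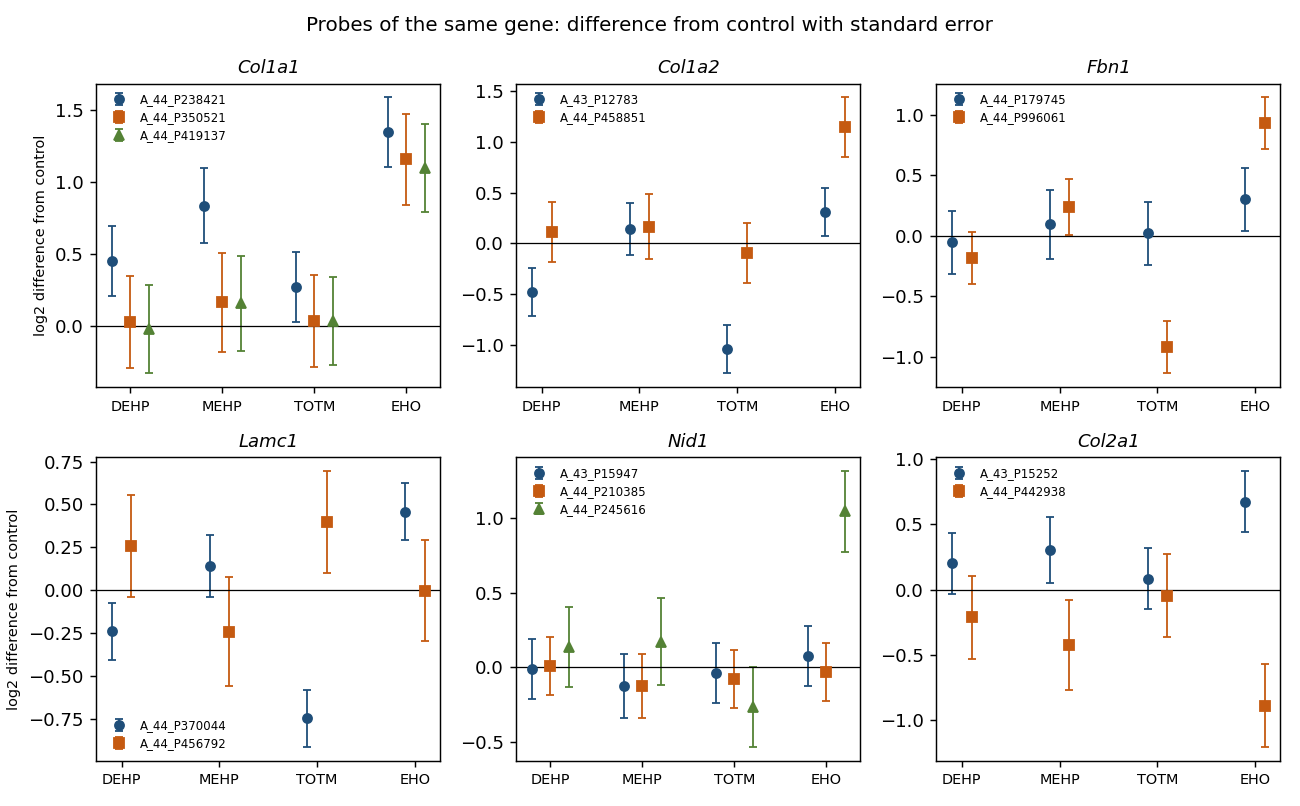
Log2 difference from control ± SE for each probe of Col1a1, Col1a2, Fbn1, Lamc1, Nid1 and Col2a1 after the 4 compounds, with marked spots kept. The 3 Col1a1 probes lie together at 1.10 to 1.34 for EHO, while the probes of Fbn1 lie at -0.92 and 0.02 for TOTM.

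The 4 compounds, given at the same dose and days, were compared in 6 pairs, each adjusted over all 24217 genes. EHO and TOTM differed most: 16 of 53 members were higher after EHO (30.2%) and 2 lower, against 8.51% and 13.2% of all genes, and 21.7% in either direction. The higher members held 5 fibrillar collagens (Col1a1, Col1a2, Col3a1, Col5a1, Col5a2), 4 basement membrane genes (Nid1, Nid2, Lama5, Col15a1), Col6a1, Col6a3 and Col16a1, both fibrillins, Fn1 and Sparc. The lower ones were Col5a3 (-0.73, adjusted p = 0.0117) and Col11a2 (-0.49, adjusted p = 0.0461). Col10a1 (-1.20) and Lamc3 (-1.17), among the lowest, were not called, and both are dim on EHO arrays 1 and 2. Lamc1, not called, had means of -1.79 after EHO and -1.39 after TOTM on the tested probe. On its other probe the means were -1.22 after EHO and -2.43 after TOTM.

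Fbn1 had the largest difference, 1.85 ± 0.21 (SE, 95% interval 1.40 to 2.31), a 3.61-fold higher signal after EHO with an adjusted p of 0.000112. Its lowest EHO level, 4.88, was above the highest TOTM level, 3.57. Col1a2 was 1.36 ± 0.21 (SE) higher, with levels of 8.34, 7.71, 7.17 and 7.99 after EHO and an adjusted p of 0.00145. Those were all above the TOTM levels, and its other probe gave 1.24. Nid1 was 1.31 ± 0.27 (SE) higher, with TOTM levels of 1.46, 1.23, 2.02 and 1.74 and an adjusted p of 0.00574. The calls of Fbn1 and Nid1 rest on 1 probe each: the other Fbn1 probe differed by 0.28 and the other two Nid1 probes by 0.12 and 0.05, none of them called. The count of 18 was 3 without both dim EHO arrays, 11 without EHO array 1 and 10 without TOTM array 2, and the fit of these 2 groups alone gave 8. All 4 arrays of EHO were above all 4 of TOTM in 17 members (32.1%), against 10.5% of all genes, and below in 3, against 8.66% of all genes.

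Against DEHP, 7 of 53 members were higher after EHO (13.2%) and 0 lower, with 6.52% of all genes called and 3.78% higher. They were Fbn1 (1.11 ± 0.21 SE, adjusted p = 0.00712), Fbn2 (1.09), Col1a1 (0.89), Lama5 (0.81), Col6a3 (0.80), Col1a2 (0.79) and Col3a1 (0.62). The other Fbn1 probe overlapped between the groups, with means of 0.65 after EHO and 0.29 after DEHP. Lama5 probe A_44_P189469 had means of -2.18 after EHO and -1.88 after DEHP. The remaining probes of Col1a1, Col1a2, Fbn2 and Lama5 had higher means after EHO. DEHP levels of Col1a1 were 6.74, 6.64, 7.26 and 6.88, those of Col1a2 7.19, 6.82, 7.16 and 6.89 and those of Col3a1 6.65, 6.58, 6.90 and 6.75. Only for Col3a1 among these 3 was every EHO array higher. Lum (0.93, adjusted p = 0.0903) and Nid1 (0.91, adjusted p = 0.0526) were not called, and neither were Col10a1 (-1.14) and Lamc3 (-1.13), among the lowest members. This count was 1 without EHO array 1, DEHP array 1 or DEHP array 2, 1 without both dim EHO arrays, 2 without EHO array 2 or DEHP array 4, and 4 without DEHP array 3. It was 22 without EHO array 3 and 17 without EHO array 4.

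MEHP and TOTM, which differ in the acid and in the number of ester groups, differed in 2 of 53 members, both lower after TOTM, where 1.56% of all genes were called and 1.47% were lower. Col1a2 was -1.19 ± 0.23 (SE, adjusted p = 0.0159), with MEHP levels of 7.54, 7.70, 7.88 and 7.40, all above the TOTM levels. Fbn1 was -1.16 ± 0.23 (SE, adjusted p = 0.0143), with MEHP levels of 4.71, 4.79, 4.44 and 4.599, also all above TOTM. Both calls rest on 1 probe each, as the other probes differed by -0.26 for Col1a2 and by -0.08 for Fbn1, neither called. Fn1 followed at -0.72, and the highest members were Col5a3 (0.68), Lamc1 (0.64) and Fbln1 (0.51), none of them called. The other Lamc1 probe lay the other way, with means of -2.43 after TOTM and -1.54 after MEHP. Neither call was made without TOTM array 2 or without MEHP arrays 3 and 4, or with the array median as the reference, and 1 was made without MEHP array 4.

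No member was called between the diester DEHP and the monoester MEHP, where 1.16% of all genes were. In limma 1 member had an unadjusted p under 0.05, as had 5.55% of all genes. Array weights gave 2 calls. Intervals of the difference were wide: -0.58 to 0.65 for Nid1, -0.07 to 0.91 for Fbn1 and 0.13 to 1.11 for Col1a2, whose MEHP levels were all above those of DEHP (difference 0.62, adjusted p = 0.562). Col16a1 followed at 0.42, and the lowest members were Lamc1 (-0.50), Fbln1 (-0.41) and Col23a1 (-0.37). The other Col1a2 probe had means of 3.83 after MEHP and 3.77 after DEHP. The other Lamc1 probe lay the other way from the tested one, with -1.54 after MEHP and -1.92 after DEHP. Between TOTM and DEHP 0 of 53 members and 0% of all genes were called, with 3 members and 2.94% of all genes at an unadjusted p under 0.05, and no member called in any other analysis run. Fbn1 was -0.74 (95% interval -1.19 to -0.29) and Col22a1 0.48 (0.18 to 0.77). Col1a2 (-0.57) and Nid1 (-0.40) were the next lowest, and Col5a3 (0.35) and Col11a2 (0.22) the next highest. On their other probes, Fbn1 had means of 0.37 after TOTM and 0.29 after DEHP, and Col1a2 had 3.56 and 3.77. EHO and MEHP gave 0 calls among members and 0.26% among all genes, with 12 members and 24.1% of all genes at an unadjusted p under 0.05. There was 1 call with array weights, and there were 2 without EHO array 3 or without EHO array 4. Nid1 differed by 0.87 (95% interval 0.26 to 1.49) and Fbn2 by 1.04 (0.35 to 1.72). Col6a2 followed at 0.79, and Col10a1 (-0.98) and Lamc3 (-0.93) were among the lowest. These intervals do not show that the compounds act alike.

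Some members lie side by side on the chromosome. The probes of Dcn and Lum are 49.08 kb apart on chromosome 7, with EHO differences of 0.42 and 1.10. Those of Col3a1 and Col5a2 are 58.02 kb apart on chromosome 9, with differences of 0.50 (marked spots kept) and 0.44. Those of Col6a1 and Col6a2 are 125.9 kb apart on chromosome 20, with 0.51 and 0.57.

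Other genes of the matrix were taken as 4 lists, to be read against the 6.74% of all genes that were higher after EHO, the 18.1% that were lower and the median of -0.17. Among the enzymes that modify, fold and crosslink collagen, 3 of 20 tested genes were higher after EHO and 0 lower. They were Serpinh1, the collagen chaperone of the endoplasmic reticulum (0.70), P4hb, a subunit of prolyl 4-hydroxylase (0.62), and Loxl2, a crosslinking oxidase (0.57), while Lox had 0.76 with an adjusted p of 0.0678. The list's median was 0.19. Of other matrix glycoproteins and proteoglycans, 4 of 30 were higher (Cspg2, Fmod, Tnc and Tnr) and 4 lower (Matn1, Spock1, Hmcn1 and Comp), with a median of 0.06. Fmod, encoding the fibril-binding proteoglycan fibromodulin, was 0.79 higher and Tnc, encoding tenascin-C, 0.86.

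Among matrix receptors 1 of 20 was higher and 3 lower, with a median of -0.23, all near the values of all genes. Itgb1, the integrin beta chain shared by most collagen and laminin receptors, was 0.65 higher, and Itga10, Itga4 and Itgb7 were lower by values of -1.64, -0.74 and -0.71. Of the TGF-beta axis and known regulators of matrix genes, 3 of 18 were higher (Foxc2 1.07, Tgfb3 0.62 and Prrx1 0.52) and 2 lower (Tgfbr1 -1.40 and Tgfbr3 -1.02), with a median of -0.06. None of the genes in these 4 lists was called after DEHP, MEHP or TOTM.

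Some markers of cells that make matrix were also higher after EHO. Of all genes, 6.74% were higher after EHO than in controls and 8.51% higher than after TOTM. Of 7 Sertoli markers, 1 was higher after EHO than in controls and 0 lower, with a median of -0.07. None of the 7 was called between EHO and TOTM. The summed level of 5 interstitial markers was 4.25 to 4.92 in the controls, 4.26 to 4.52 after DEHP, 4.30 to 4.83 after MEHP, 3.76 to 4.34 after TOTM and 4.75 to 5.23 after EHO. Of these markers, Dlk1 (0.63) and Nr2f2 (0.59) were higher after EHO than in controls, and Nr2f2 (1.61) and Tcf21 (0.71) were higher after EHO than after TOTM. The summed level of 4 peritubular markers was 3.47 to 4.05 in the controls and 3.79 to 4.58 after EHO. Actg2 (0.74) and Des (0.62) were higher than in controls, and none of the 4 was called between EHO and TOTM. Of 3 cartilage markers tested, 2 were lower after EHO and 0 higher, where 18.1% of all genes were lower. Of the 6 on the array, 4 were well above background on no EHO array. The 3 red cell markers had a median of 1.0002 against control, none called, and 2 of them were higher than after TOTM (Hbb 1.30 and Hbe1 1.24). Of 6 endothelial markers, Emcn was higher (0.52) and Flt1 lower (-0.90) than in controls, and Emcn and Kdr were higher than after TOTM. Lhcgr, 1 of 6 Leydig cell markers, and Cyp11b2, 1 of 2 adrenal markers, were lower than in controls, again beside 18.1% of all genes. The part of these markers in the matrix results was not tested.

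The authors' deposited table lists signed fold changes for each compound, with all p-values at or below 0.00999 and no reference group named in its header. In the authors' deposited table the block headed EH, taken here as EHO, lists 28 member probes of 22 genes, 27 of them higher. The MEHP block of the authors' deposited table lists 19, of which 16 are higher. Among all probes listed in the authors' deposited table, 66.8% of 4210 are higher for EH and 57.1% of 3827 for MEHP. The authors' deposited table lists 4 member probes for DEHP, 1 of them higher, and 6 for TOTM, 2 of them higher. Here 50.1% of all 1004 probes listed in the authors' deposited table are higher for DEHP and 54.6% of 3298 for TOTM. Among its values, the authors' deposited table gives 1.83, 2.10 and 2.02 for the 3 Col1a1 probes and 1.99 for Nid1 in the EH block, where a second Nid1 probe, at 0.08 in the fit here, stands at 1.54. The authors' deposited table gives 2.20 for Nid1 in the MEHP block and -2.27 for Col1a2 and -1.82 for Fbn1 in the TOTM block. Over all listed probes of the authors' deposited table, 87.9% to 97% had the same sign as the differences computed here. Bgn is listed at -1.27 (DEHP), -1.20 (MEHP), -1.49 (TOTM) and -1.23 (EH) in the authors' deposited table, while its differences here, on marked control spots, were 0.37, 0.59, 0.07 and 0.48 in the same order.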

How the data were processed

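RNA of 20 pools of foetal testes was measured on 1-colour Agilent rat arrays. Per the file headers, the deposited intensity values come from Feature Extraction 9.5.3.1 (9.5 in the submitters' processing notes), with probe positions on rn4. The processed signal had been background-subtracted by the authors' software. The authors' deposited table holds, for each listed probe, a p-value beside a signed fold change. The test behind the former is not given in the sources used here.

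The log2 processed signal of each array was taken relative to its 75th percentile, and spots marked as non-uniform or as population outliers were then set aside. A probe had to be well above background on all arrays of 1 or more groups (28133 were), and the probe with the highest mean stood for its gene (24217 genes, 23897 with control values). Group means over 19 samples were fitted with limma 3.58.1 (R 4.3.3) with 14 residual degrees of freedom. Benjamini-Hochberg adjustment was made separately for each of 10 comparisons. The precision is limited by the number of arrays. The scripts were tested on simulated data. Members and gene lists were chosen with earlier results of these data known. Members named were a fixed set of main structural chains, up to 12 called members for each comparison with control, and the 3 largest differences each way in every comparison. Of other lists, called genes were named. Alternatives were other scalings, filters, spot flags, array weights, a replicate block, fits of 2 groups alone and arrays left out. Results of 1 member are not reported here.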

Additional observations from a re-analysis of the deposited data

Results flagged for a closer look

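Among 28 named members, 108 groups of 4 arrays were checked for 1 array far from the other 3, a check that chance alone sets off in about 1 group in 20. It marked 3 values. Fbn1 was low on Control array 1, at 3.77 against 4.48 for the nearest control. Col6a1 was low on EHO array 3, at 3.50 against 4.16 for the nearest EHO array. Col5a3 was high on DEHP array 3, at -0.23 against -0.53 for the nearest.

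Between compounds, limma's test of the difference itself called 18 members for EHO against TOTM, 7 for EHO against DEHP and 2 for TOTM against MEHP. These pairs share arrays, so that the counts are not independent of each other.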

How the results depend on the processing

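Of 216 recomputed counts of called members, 170 were within 1.5 times the reported count and 46 were not. Of 789 recomputed differences of named members that were called, 561 kept their call, 228 lost it and 0 changed sign. The cause of these shifts was not tested.

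Members called for EHO against control numbered 27 with the array median as the reference, 0 when the 2 groups were fitted alone and 5 with a replicate block. They numbered 1 with array weights, 0 without the dim EHO arrays 1 and 2, and 0 to 22 with 1 array left out. For EHO against DEHP (7) they numbered 14 with the array median, 15 with detection required on all arrays, 2 with the 2 groups alone, 2 with the block, 2 with weights, 1 without EHO arrays 1 and 2, and 1 to 22 with 1 array left out. For EHO against TOTM (18) there were 8 with the 2 groups alone, 3 without EHO arrays 1 and 2, and 10 to 27 with 1 array left out. For TOTM against MEHP (2) there were 4 with normexp, 0 with the array median, 4 with detection on all arrays, 1 with the block, 14 with weights, 0 without MEHP arrays 3 and 4, and 0 to 2 with 1 array left out. EHO against MEHP (0) gave 1 with weights and 0 to 2 with 1 array left out. TOTM against control (0) gave 1 with normexp, 1 with detection on all arrays and 1 with weights. Weights also gave 1 for DEHP and 3 for MEHP against control, and 2 for MEHP against DEHP. Some alternatives were not among those planned. They were the fits without MEHP arrays 3 and 4, without Control array 2 and MEHP array 3, and of all probes with marked spots kept.

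Deviations from the group means correlated by over 0.1 in 13 of 36 same-numbered pairs of arrays (correlations -0.68 to 0.46). Pairs with different numbers were not examined, so this does not settle whether the replicate numbers pair the samples. Slide could not be fitted as a block, since each slide holds 1 group. Signal over background limits the dim members on EHO arrays 1 and 2.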
